A study of Homo sapiens with 8 samples.

Results

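The genes described here drive cells through mitosis: the cyclin-dependent kinase CDK1 with its cyclins and CDC25 phosphatases, the mitotic kinases, the spindle checkpoint with regulators of the anaphase-promoting complex (APC/C), and proteins of the kinetochore, spindle, cleavage furrow and condensed chromosome. They were chosen by symbol, as 42 genes from 16383 in the deposited count table, and all 42 were listed and passed the filter on low counts. The data are RNA sequencing of MDA-MB-231, a human triple-negative breast cancer line of mesenchymal character. Cells were given 5 µM c-di-GMP, a bacterial cyclic dinucleotide that binds the innate immune adaptor STING, for 24 h (4 libraries), or phosphate-buffered saline as the vehicle for 24 h (4 libraries). All were grown in DMEM with fetal bovine serum and antibiotics, and no genetic change is given for either group. Separate cultures are not stated for libraries of 1 group, so each p-value reflects the library-to-library spread alone, which may be technical. A single cell line was used, and uptake of c-di-GMP is not recorded in the labels.

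As background, CDK1 bound to cyclin B is the switch for mitotic entry: it is held off by inhibitory phosphorylation, which CDC25 phosphatases remove. At the kinetochore, the spindle checkpoint keeps the APC/C inactive until every chromosome is attached, after which CDC20 and UBE2C let it mark cyclin B and securin for destruction. Most of these genes are transcribed late in the cell cycle, through a promoter element called the CHR (cell cycle genes homology region) and CCAAT boxes, which bind the MuvB complex and NF-Y, and their summed RNA is widely used as a measure of proliferation. In RNA from whole cultures, a change in the share of cells in G2 and mitosis and a change in RNA per such cell cannot be told apart.

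Library totals ran between 16151360 and 18040010 counts. Gene levels are counts scaled to library size after TMM normalisation (CPM). On that scale 3 counts, the limit set by counting error alone, equal 0.156 to 0.175 CPM in the other 7 libraries and 0.268 CPM in vehicle replicate 3. Vehicle replicate 3 was unlike the rest: 465 listed genes were at 0 against 2 to 9, mitochondrial genes took 1.40% of counts, and its TMM scaling factor was 0.66 against 1.05 to 1.07. Counts of calls are therefore given with all 8 libraries and with the 7 that leave it out, fold changes of single genes rest on the 7 unless stated, and its levels are shown apart. The mitochondrial share also differed between the groups, at 4.74% to 5.00% in the c-di-GMP libraries, against 3.58% to 4.45% in vehicle replicates 1, 2 and 4, with no overlap, and its part in the results below was not tested. The defining MDA-MB-231 markers VIM, CD44, EGFR, AXL, CAV1 and LGALS1 were all high. Summed over the markers, they stood at 4054 to 4126 CPM with c-di-GMP, against 3969 to 4004 CPM in vehicle replicates 1, 2 and 4 and 5810 CPM in vehicle replicate 3. The leukocyte markers PTPRC and CD3E were not listed in the table, and CD14 and LYZ summed to 10.6 to 13.1 CPM with c-di-GMP, against 12.5 to 17.04 CPM in vehicle replicates 1, 2 and 4 and 30.8 CPM in vehicle replicate 3. Luminal ESR1, PGR and FOXA1 were not listed either, while KRT8 and KRT18 carried nearly all of the 957 to 974 CPM of the luminal and epithelial list with c-di-GMP, against 946 to 994 CPM in vehicle replicates 1, 2 and 4 and 2301 CPM in vehicle replicate 3. Endothelial and fibroblast markers summed to 31.4 to 35.7 CPM with c-di-GMP, against 35.2 to 38.5 CPM in vehicle replicates 1, 2 and 4 and 23.4 CPM in vehicle replicate 3.

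Without vehicle replicate 3, the mitotic genes were slightly and broadly higher after c-di-GMP. Of the 42, 30 rose and 1 fell at an adjusted p under 0.05 (edgeR's quasi-likelihood test, Benjamini-Hochberg over 15647 genes), where 13.5% of all genes tested rose and 16.2% fell. The rises lay between 1.08-fold and 1.28-fold, with a median of 1.16-fold. The median log2 fold change was 0.19 over the 42 genes and 0.00 over all genes. In 30 of the 42 genes every c-di-GMP library stood above vehicle replicates 1, 2 and 4, and in 0 every one stood below, where 17.6% and 18.1% of all genes were separated in those directions. The 30 separated genes and the 30 that rose had 29 in common. CCNA2 rose with overlapping groups, and CDCA8 was separated without being called. The 42 genes summed to 8070 to 8364 CPM in the c-di-GMP libraries, against 7192 to 7475 CPM in vehicle replicates 1, 2 and 4 and 9222 CPM in vehicle replicate 3. As a share of all counts, without TMM scaling, they took 0.855% to 0.886% in the c-di-GMP libraries, against 0.756% to 0.794% in vehicle replicates 1, 2 and 4 and 0.612% in vehicle replicate 3, so that replicate 3 was highest on the first scale and lowest on the second. Vehicle replicate 1 was the lowest of replicates 1, 2 and 4 for 26 of the 42 genes.

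With all 8 libraries, 0 of the 42 genes and 0.0% of all 15415 genes tested passed that threshold by edgeR, with 3 of the 42 and 960 of all genes at an unadjusted p under 0.05. Those 3 were TTK, with a log2 fold change of 0.28 ± 0.11 (SE), ECT2 at 0.31 ± 0.13 and NCAPG at 0.40 ± 0.16, each with an adjusted p of 0.623. DESeq2 called 122 genes on the same libraries, and of the 42 it called TPX2, at 0.22 ± 0.05 with an adjusted p of 0.0045. limma on log2 FPKM called 0 genes, with 874 at an unadjusted p under 0.05. The typical variation between libraries of a group was 36.3% with 8 libraries and 4.52% with 7 (edgeR's biological coefficient of variation). In 14 of the 42 genes all c-di-GMP libraries stood above all 4 vehicle libraries, against 6.93% of all genes.

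Fold changes also followed base composition in these libraries, so a GC-corrected fit of the 7 libraries is given beside the uncorrected one. In it, 22 of the 42 genes rose and 0 fell, where 8.58% of all genes rose and 6.62% fell, and all 42 fold changes were above 0, with a median of 0.11 on the log2 scale. The rises called there lay between 1.07-fold and 1.24-fold. Both fits called 19 genes: CDK1, CCNB1, CCNB2, PLK1, AURKA, AURKB, TTK, BUB1B, MAD2L1, UBE2C, PTTG1, SPC25, CENPE, TPX2, DLGAP5, TOP2A, SMC2, SMC4 and NCAPG.

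**Figure D1:**
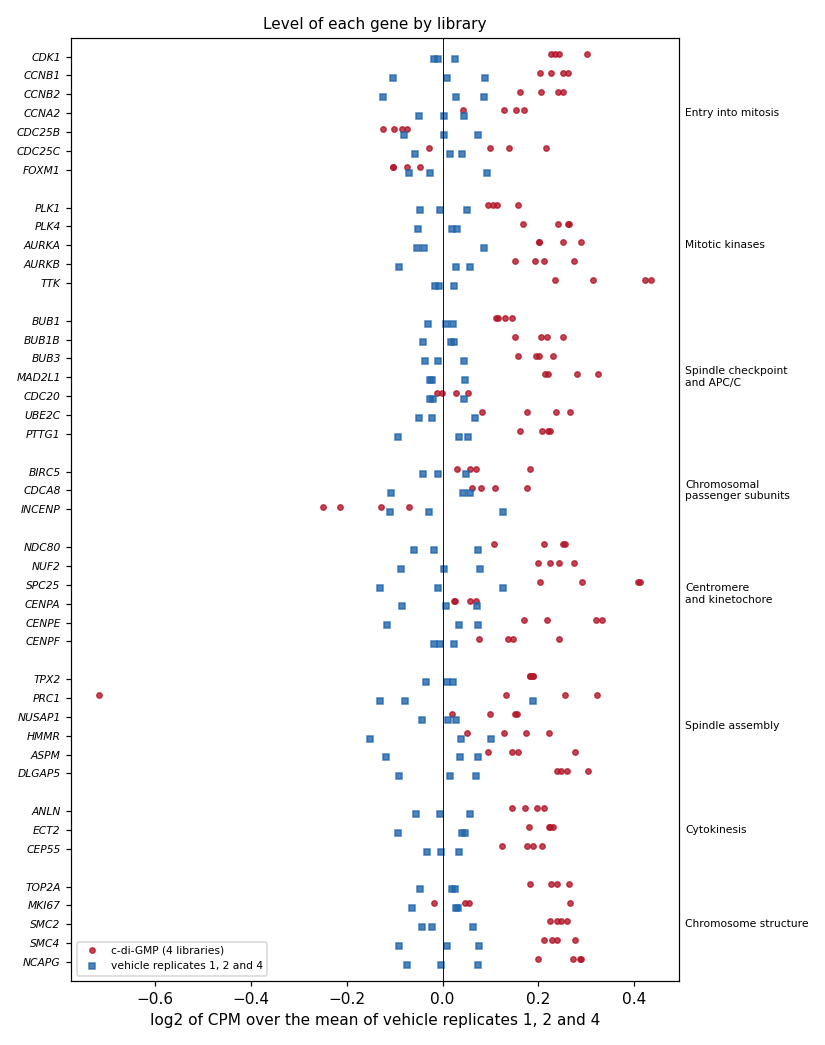
Each point is 1 library of c-di-GMP-treated (circles) or vehicle-treated cells (squares, replicates 1, 2 and 4), placed by the log2 of its CPM over the mean of those 3 vehicle libraries, with genes grouped by role. In 30 of the 42 genes all circles lie to the right of all squares, most of them at a log2 value between 0.1 and 0.3.

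The promoters of these genes are shown first because many of them hold CHR and CCAAT elements. Promoter windows of 300 bases (250 before the transcription start and 50 from it on) were taken from RefSeq, build GRCh38.p14, in which 35 of the 42 genes matched. BIRC5, FOXM1, TPX2, UBE2C, BUB3, AURKA and TTK had no window there. A CHR was counted where TTTGAA stood on either strand or TTCGAA did, and a CCAAT box where CCAAT stood on either strand. A CHR and a CCAAT match could share at most 1 base, and each was counted on its own. A CHR match was found in 30 of the 35 genes (85.7%), where 19.5% of 27305 genes and 16.4% of 35116 windows hold one. In 26 of the 35 genes (74.3%) it lay within 50 bases of the start in any of their windows, against 5.01% of all windows. The first share is per gene and the second per window, and a gene can have several windows. A share per gene over all genes was not counted for this distance. A CCAAT box was found in 27 of the 35 (77.1%), against 39.7% of genes and 34.6% of windows, and both motifs were found in 22 (62.9%), against 7.85% of genes. Of the 25 matched genes that rose without GC correction, 20 held a CHR match, 17 a CCAAT box and 12 both. Of the 10 matched genes that did not rise, all 10 held each motif, and these counts were not tested. CCNB1, CCNA2, AURKB, PTTG1 and CENPE held no match to the counted CHR forms in these windows. Other forms of the element were not searched, so a CHR of another form could be present in them. Of the genes printed below, CDK1, CCNB2 and PLK1 were called in both fits and hold matches of both motifs. BUB1B and NCAPG were called in both and hold a CHR match without a CCAAT match. CCNB1 was called in both and holds CCAAT matches without a match to the counted CHR forms. CDC20 was called only after GC correction, and INCENP fell without it. The stretches give the 150 bases before the start on the coding strand, with CHR and CCAAT matches in capitals. They lie at chr10:60778328-60778477 (CDK1), chr5:69167000-69167149 (CCNB1), chr15:59104996-59105145 (CCNB2), chr16:23678739-23678888 (PLK1), chr15:40160919-40161068 (BUB1B), chr4:17810829-17810978 (NCAPG), chr1:43358831-43358980 (CDC20) and chr11:62123861-62124010 (INCENP), all on the plus strand.
CDK1: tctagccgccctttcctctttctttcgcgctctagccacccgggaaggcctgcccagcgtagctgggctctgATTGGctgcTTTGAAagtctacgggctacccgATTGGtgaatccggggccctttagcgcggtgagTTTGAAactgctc
CCNB1: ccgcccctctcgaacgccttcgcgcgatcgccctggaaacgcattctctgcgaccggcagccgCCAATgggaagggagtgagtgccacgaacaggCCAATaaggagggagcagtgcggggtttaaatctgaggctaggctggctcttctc
CCNB2: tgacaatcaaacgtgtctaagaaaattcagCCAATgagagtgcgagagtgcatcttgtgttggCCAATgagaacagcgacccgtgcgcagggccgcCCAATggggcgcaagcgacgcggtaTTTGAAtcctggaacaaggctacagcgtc
PLK1: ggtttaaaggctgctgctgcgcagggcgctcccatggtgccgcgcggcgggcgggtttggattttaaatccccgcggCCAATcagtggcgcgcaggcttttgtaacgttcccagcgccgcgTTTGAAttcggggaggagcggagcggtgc
BUB1B: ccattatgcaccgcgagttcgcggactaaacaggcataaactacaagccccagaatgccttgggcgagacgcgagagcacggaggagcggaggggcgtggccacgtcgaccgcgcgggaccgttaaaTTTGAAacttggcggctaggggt
NCAPG: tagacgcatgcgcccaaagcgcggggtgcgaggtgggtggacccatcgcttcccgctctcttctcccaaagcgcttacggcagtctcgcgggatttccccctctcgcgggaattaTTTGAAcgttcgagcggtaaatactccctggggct
CDC20: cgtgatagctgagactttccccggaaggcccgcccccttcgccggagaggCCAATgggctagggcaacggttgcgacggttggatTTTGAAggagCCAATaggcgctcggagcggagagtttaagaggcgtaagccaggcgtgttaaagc
INCENP: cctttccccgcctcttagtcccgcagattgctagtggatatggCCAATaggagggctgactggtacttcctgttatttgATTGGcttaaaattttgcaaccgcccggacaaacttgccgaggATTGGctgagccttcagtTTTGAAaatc
In the printed stretch of CDK1, CHR matches began 13 and 69 bases before the start and the CCAAT matches 46 and 78 bases before it. In CCNB2 a CHR match 29 bases before the start followed CCAAT matches at 54, 87 and 120 bases. PLK1 had its CHR match at 29 bases and its CCAAT match at 73 bases, and INCENP had its CHR match at 10 bases and CCAAT matches at 28, 71 and 107 bases.

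**Figure D2:**
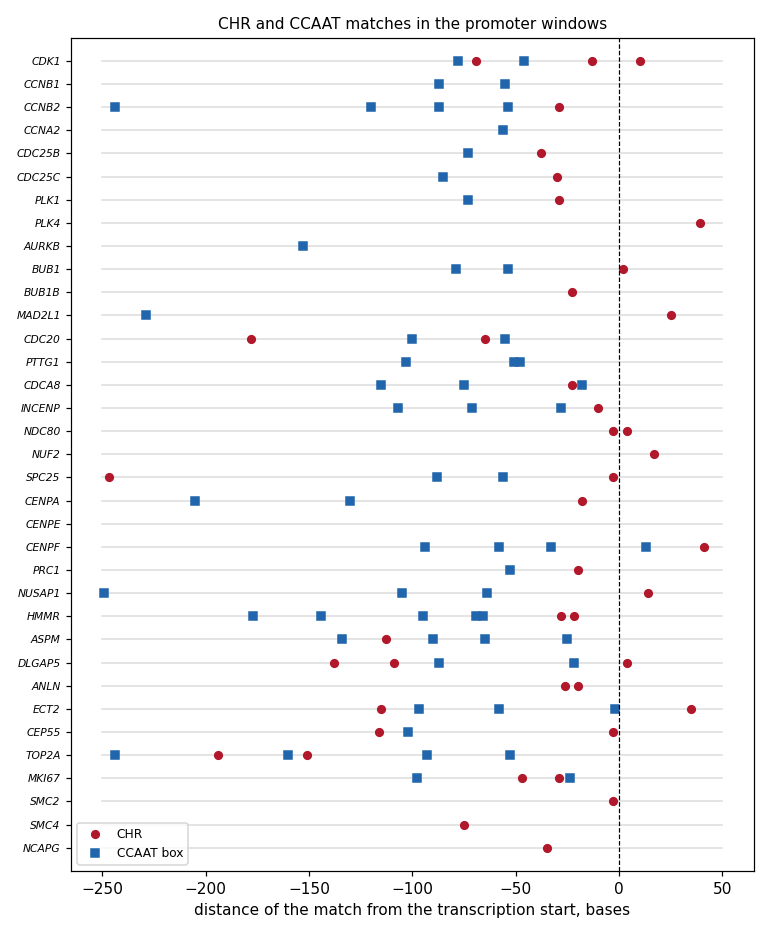
Distance in bases of each CHR match (circles) and CCAAT match (squares) from the transcription start (dashed line) in the promoter windows of 35 genes, negative before the start, with 1 window drawn a gene, the one whose CHR match lies nearest the start where a gene has several. CHR matches in the drawn windows gather within 50 bases of the start, in 26 of the 35 genes, which the choice of window favours. Most CCAAT matches lie further upstream.

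CDK1 and its B-type cyclins rose in both fits. With a length correction added to that for GC, CCNB1 was still called, while CDK1 (0.10 ± 0.03) and CCNB2 (0.09 ± 0.04) were not. CDK1, the mitotic kinase itself (chr10:60778331-60794852, GRCh38), had 136, 137, 138 and 144 CPM in the c-di-GMP libraries and 116, 115 and 119 CPM in vehicle replicates 1, 2 and 4, with 434 CPM in vehicle replicate 3. Its log2 fold change without that library was 0.25 ± 0.04 (SE) with an adjusted p of 9.7e-05 by edgeR, and 0.11 ± 0.04 after GC correction. CCNB1, the cyclin that activates CDK1 at mitotic entry (chr5:69167010-69178245), had 263, 255, 259 and 265 CPM in the c-di-GMP libraries and 206, 235 and 223 CPM in vehicle replicates 1, 2 and 4, with 447 CPM in vehicle replicate 3. Its change was 0.23 ± 0.04 on the log2 scale (adjusted p = 0.000337, edgeR) and 0.14 ± 0.03 after GC correction. For both genes the c-di-GMP libraries lay above vehicle replicates 1, 2 and 4 without overlap, and vehicle replicate 3 lay above everything. CCNB2, a second B-type cyclin, had 74.5, 70.1, 72.2 and 74.0 CPM in the c-di-GMP libraries and 57.5, 66.5 and 63.9 CPM in vehicle replicates 1, 2 and 4, and 126 CPM in vehicle replicate 3. It rose by 0.21 ± 0.05 (adjusted p = 0.00338, edgeR), and by 0.14 ± 0.04 after GC correction, again with no overlap among the 7 libraries.

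CCNA2, the A-type cyclin of S phase and G2, had 176, 173, 164 and 179 CPM in the c-di-GMP libraries and 164, 159 and 153 CPM in vehicle replicates 1, 2 and 4, with 114 CPM in vehicle replicate 3. c-di-GMP replicate 3 lay just under vehicle replicate 1, so the groups overlapped, and the change was 0.12 ± 0.04 (adjusted p = 0.0378, edgeR). This call was lost when any of 5 single libraries was left out (c-di-GMP replicates 1, 2 or 4, or vehicle replicates 2 or 4, values 0.10 to 0.12), and the GC-corrected value was 0.02 ± 0.04. FOXM1, the transcription factor that works with MuvB at many of these promoters (chr12:2857681-2877155), had 129, 127, 132 and 126 CPM in the c-di-GMP libraries and 145, 133 and 129 CPM in vehicle replicates 1, 2 and 4. Its groups overlapped, its change of -0.08 ± 0.05 was not called (approximate 95% interval -0.17 to 0.00), and vehicle replicate 3 held 8.76 CPM. The phosphatases that free CDK1 were not called in either fit. CDC25B stood at -0.10 ± 0.04 without and 0.09 ± 0.03 with GC correction, and CDC25C at 0.11 ± 0.08 and 0.08 ± 0.07.

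All 5 mitotic kinases rose, and 4 of them also after GC correction. TTK (MPS1), which starts spindle checkpoint signalling, showed the largest rise of the 42 genes. It had 56.9, 64.8, 60.2 and 65.5 CPM in the c-di-GMP libraries and 47.9, 49.2 and 48.1 CPM in vehicle replicates 1, 2 and 4, with 59.1 CPM in vehicle replicate 3. The change was 0.35 ± 0.06 on the log2 scale, or 1.28-fold (adjusted p = 4.5e-05, edgeR), and 0.24 ± 0.05 after GC correction. In contrast with most of these genes, vehicle replicate 3 fell inside the range of the c-di-GMP libraries. AURKA, the centrosomal Aurora kinase, had 221, 221, 235 and 229 CPM in the c-di-GMP libraries and 185, 205 and 188 CPM in vehicle replicates 1, 2 and 4, and 442 CPM in vehicle replicate 3. It rose by 0.23 ± 0.04 (adjusted p = 0.000297, edgeR) and by 0.19 ± 0.04 after GC correction. AURKB, the enzyme of the chromosomal passenger complex, had 90.6, 86.9, 94.6 and 89.4 CPM in the c-di-GMP libraries and 79.7, 81.4 and 73.4 CPM in vehicle replicates 1, 2 and 4, and 242 CPM in vehicle replicate 3. Neither Aurora kinase had overlapping groups among the 7 libraries. AURKB rose by 0.20 ± 0.05 (adjusted p = 0.00226, edgeR), and its GC-corrected value of 0.31 ± 0.04 was the highest of all 42 genes.

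PLK4, which starts centriole duplication, had 68.7, 67.7, 64.4 and 68.8 CPM in the c-di-GMP libraries and 55.3, 58.5 and 58.1 CPM in vehicle replicates 1, 2 and 4, with 64.5 CPM in vehicle replicate 3. It rose by 0.23 ± 0.05 (adjusted p = 0.00103, edgeR), and its GC-corrected value of 0.10 ± 0.04 was not called. PLK1, the polo-like kinase of mitotic entry and centrosome maturation, had 131, 132, 136 and 130.3 CPM in the c-di-GMP libraries and 126, 122 and 118 CPM in vehicle replicates 1, 2 and 4, with 65.2 CPM in vehicle replicate 3. The groups were separate among the 7 libraries but the gap was small. The uncorrected change of 0.12 ± 0.04 (adjusted p = 0.0441, edgeR) was lost on leaving out c-di-GMP replicate 1, 2, 3 or 4 or vehicle replicate 2 or 4, with values of 0.09 to 0.12. The GC-corrected change of 0.25 ± 0.03 was called. The PLK1 transcript has a GC content of 57.1% and that of AURKB 55.6%, both above the median of 48.3% over all genes.

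Of the 7 spindle checkpoint and APC/C genes, 6 rose, and 5 rose after GC correction. MAD2L1, which holds CDC20 inactive in the checkpoint complex, had 116, 117, 125 and 122 CPM in the c-di-GMP libraries and 98.5, 98.3 and 103 CPM in vehicle replicates 1, 2 and 4, with 281 CPM in vehicle replicate 3. It rose by 0.26 ± 0.04 (adjusted p = 0.000126, edgeR) and by 0.14 ± 0.04 after GC correction. BUB1B (BUBR1), another subunit of that complex, had 88.6, 85.9, 82.7 and 86.6 CPM in the c-di-GMP libraries and 72.4, 75.7 and 75.4 CPM in vehicle replicates 1, 2 and 4, with 34.4 CPM in vehicle replicate 3. For MAD2L1 and BUB1B the 4 c-di-GMP libraries lay above vehicle replicates 1, 2 and 4, while replicate 3 lay far above them for MAD2L1 and far below for BUB1B. BUB1B rose by 0.20 ± 0.05 (adjusted p = 0.00160, edgeR) and by 0.11 ± 0.04 after GC correction; 10.2% of its exon bases are shared on the same strand with a read-through gene, BUB1B-PAK6. BUB3, which brings BUB1 and BUBR1 to the kinetochore, had 342, 332, 349 and 341 CPM in the c-di-GMP libraries and 289.9, 307 and 296 CPM in vehicle replicates 1, 2 and 4, and 726 CPM in vehicle replicate 3. It rose by 0.19 ± 0.04 (adjusted p = 0.000742, edgeR), and the GC-corrected value was 0.09 ± 0.03, not called. BUB1, the checkpoint kinase, rose by 0.12 ± 0.04 (adjusted p = 0.0226, edgeR), which was lost without c-di-GMP replicate 1 or 4 (0.12 and 0.11), and stood at 0.03 ± 0.03 after GC correction.

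PTTG1 (securin), the inhibitor of separase that the APC/C destroys, had 127, 122, 128 and 126 CPM in the c-di-GMP libraries and 102, 112 and 113 CPM in vehicle replicates 1, 2 and 4. Vehicle replicate 3 held 1892 CPM, 17.3 times the mean of the other vehicle libraries. Without it, PTTG1 rose by 0.20 ± 0.04 (adjusted p = 0.00148, edgeR) and by 0.20 ± 0.04 after GC correction, and with it the value was -2.14 ± 1.03 (adjusted p = 0.623, edgeR). UBE2C, the ubiquitin-conjugating enzyme that feeds the APC/C, had 161, 150.3, 167 and 171 CPM in the c-di-GMP libraries and 139.8, 149 and 137 CPM in vehicle replicates 1, 2 and 4, against 763 CPM in vehicle replicate 3. It rose by 0.19 ± 0.05 (adjusted p = 0.00355, edgeR) and by 0.20 ± 0.04 after GC correction. CDC20, the APC/C activator that the checkpoint restrains, had 238, 229, 234 and 228 CPM in the c-di-GMP libraries and 237, 227 and 225 CPM in vehicle replicates 1, 2 and 4, with 129 CPM in vehicle replicate 3. The groups overlapped and the change of 0.01 ± 0.04 was not called, while the GC-corrected value of 0.17 ± 0.03 was.

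The chromosomal passenger subunits, which place AURKB at centromeres and the midzone, were the group without an uncorrected rise: 0 of 3 rose and 1 fell. INCENP, the scaffold that activates AURKB, had 127, 132, 117 and 119.9 CPM in the c-di-GMP libraries and 152, 136 and 129 CPM in vehicle replicates 1, 2 and 4, with 20.1 CPM in vehicle replicate 3. Its groups overlapped, with c-di-GMP replicate 2 above vehicle replicate 4. It fell by 0.17 ± 0.05 on the log2 scale (adjusted p = 0.0194, edgeR). The call was lost without vehicle replicate 1, where the value was -0.10, or without c-di-GMP replicate 3 or 4 (-0.14 and -0.16), and after GC correction the value was 0.03 ± 0.04. INCENP has the highest GC content of the 42 genes, 59.6%. BIRC5 (survivin), which binds the marked centromeric histone, had 142, 138, 154 and 141 CPM in the c-di-GMP libraries and 135, 140.3 and 132 CPM in vehicle replicates 1, 2 and 4, and 458 CPM in vehicle replicate 3. CDCA8 (borealin) had 128, 136, 126.0 and 130.3 CPM in the c-di-GMP libraries and 125.7, 124 and 112 CPM in vehicle replicates 1, 2 and 4, and 60.1 CPM in vehicle replicate 3. Its c-di-GMP libraries lay above vehicle replicates 1, 2 and 4 by a narrow gap. Without GC correction neither was called, at 0.08 ± 0.04 for BIRC5 and 0.10 ± 0.05 for CDCA8, and with it both rose, by 0.13 ± 0.04 and 0.14 ± 0.04. CDCA8 also passed the threshold without correction when vehicle replicate 1 was left out, at 0.13.

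Of the 6 centromere and kinetochore genes, 5 rose, and 2 of them also after GC correction. SPC25, a subunit of the NDC80 complex that links kinetochores to microtubules, had 24.2, 27.8, 25.7 and 27.9 CPM in the c-di-GMP libraries and 19.2, 22.9 and 20.9 CPM in vehicle replicates 1, 2 and 4, with 79.8 CPM in vehicle replicate 3. It rose by 0.33 ± 0.07 (adjusted p = 0.00145, edgeR), the second largest change of the 42, and by 0.21 ± 0.07 after GC correction. NDC80, which contacts the microtubule, had 82.1, 91.0, 88.3 and 90.8 CPM in the c-di-GMP libraries and 73.2, 80.3 and 75.3 CPM in vehicle replicates 1, 2 and 4, and 349 CPM in vehicle replicate 3. NUF2, its partner, had 77.9, 79.2, 82.1 and 80.3 CPM in the c-di-GMP libraries and 63.9, 71.7 and 67.9 CPM in vehicle replicates 1, 2 and 4, and 153 CPM in vehicle replicate 3. All 3 complex members were separated among the 7 libraries, with vehicle replicate 3 well above the rest. NDC80 rose by 0.20 ± 0.05 (adjusted p = 0.00293, edgeR) and NUF2 by 0.23 ± 0.05 (adjusted p = 0.000840, edgeR), and the GC-corrected values of 0.09 ± 0.04 and 0.11 ± 0.04 were not called. The other subunit of the complex, SPC24, which is not among the 42, stood at 40.3 to 46.2 CPM with c-di-GMP, against 42.9 to 45.5 CPM in vehicle replicates 1, 2 and 4 and 184 CPM in vehicle replicate 3, with overlapping groups.

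CENPE, the kinesin motor that carries chromosomes to the metaphase plate, had 171, 173, 154 and 159 CPM in the c-di-GMP libraries and 127, 144 and 140.4 CPM in vehicle replicates 1, 2 and 4, with 66.2 CPM in vehicle replicate 3. It rose by 0.26 ± 0.05 (adjusted p = 0.000407, edgeR) and by 0.12 ± 0.04 after GC correction, and has the lowest GC content of the 42, 35.3%. CENPF, a large outer kinetochore protein, rose by 0.15 ± 0.04 (adjusted p = 0.0110, edgeR), with a GC-corrected value of 0.04 ± 0.04 that was not called. CENPA, the histone H3 variant that marks centromeres, had 33.7, 33.0, 33.0 and 34.0 CPM in the c-di-GMP libraries and 32.6, 30.6 and 34.1 CPM in vehicle replicates 1, 2 and 4, with overlapping groups, and was not called at 0.04 ± 0.06 or, corrected, 0.01 ± 0.06.

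Of the 6 spindle assembly genes, 3 rose, and 2 of them also after GC correction. TPX2, which activates AURKA on spindle microtubules, had 426, 423, 425 and 423 CPM in the c-di-GMP libraries and 365, 379 and 376 CPM in vehicle replicates 1, 2 and 4, with 341 CPM in vehicle replicate 3. Its 4 c-di-GMP libraries were nearly level, and vehicle replicate 3 lay close below the other vehicle libraries. TPX2 rose by 0.18 ± 0.04 (adjusted p = 0.000943, edgeR) and by 0.14 ± 0.03 after GC correction. DLGAP5 (HURP), which stabilises kinetochore fibres, had 185, 177, 180.0 and 178 CPM in the c-di-GMP libraries and 141, 158 and 152 CPM in vehicle replicates 1, 2 and 4, with 189 CPM in vehicle replicate 3. It rose by 0.26 ± 0.04 (adjusted p = 9.3e-05, edgeR) and by 0.13 ± 0.03 after GC correction. ASPM, a spindle pole protein, had 256, 280.0, 247 and 258 CPM in the c-di-GMP libraries and 213, 243 and 237 CPM in vehicle replicates 1, 2 and 4, and 91.8 CPM in vehicle replicate 3. DLGAP5 and ASPM were each separated among the 7 libraries, ASPM by a narrow gap. ASPM rose by 0.17 ± 0.05 (adjusted p = 0.0123, edgeR), which was lost without c-di-GMP replicate 2 (0.13), and stood at 0.03 ± 0.04 after GC correction. HMMR, a spindle-associated hyaluronan receptor, had 13.6, 14.3, 14.8 and 15.3 CPM in the c-di-GMP libraries and 11.8, 13.5 and 14.1 CPM in vehicle replicates 1, 2 and 4, with 2.77 CPM in vehicle replicate 3, and was not called at 0.14 ± 0.09.

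NUSAP1 and PRC1, which bundle spindle and midzone microtubules, were not called in either fit, and their levels are uncertain. NUSAP1 had 20.6 to 22.6 CPM with c-di-GMP, against 19.7 to 20.7 CPM in vehicle replicates 1, 2 and 4, and 62.2% of its exon bases lie under another annotated gene on the same strand. PRC1 had 1.28 to 2.63 CPM with c-di-GMP, against 1.92 to 2.40 CPM in vehicle replicates 1, 2 and 4, and 57.6% of its exon bases lie under AC068831.7 on the same strand. AC068831.7 itself held 7.67 to 9.08 CPM with c-di-GMP, against 8.35 to 8.71 CPM in vehicle replicates 1, 2 and 4. How the counting treated reads shared by overlapping genes is not given in the sources used here.

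The 3 cytokinesis genes rose, and none of them was called after GC correction. ECT2, the exchange factor that activates RhoA at the furrow, had 255, 248, 257 and 256 CPM in the c-di-GMP libraries and 205, 225 and 226 CPM in vehicle replicates 1, 2 and 4, with 165 CPM in vehicle replicate 3. ANLN (anillin), the furrow scaffold, had 509.8, 525, 500.4 and 519 CPM in the c-di-GMP libraries and 436, 471 and 451 CPM in vehicle replicates 1, 2 and 4, with 99.7 CPM in vehicle replicate 3. CEP55, which recruits the abscission machinery, had 169, 171, 173 and 163 CPM in the c-di-GMP libraries and 146, 153 and 149.6 CPM in vehicle replicates 1, 2 and 4, with 60.1 CPM in vehicle replicate 3. For all 3 the c-di-GMP libraries stood highest and vehicle replicate 3 lowest, with no overlap. ECT2 rose by 0.21 ± 0.04 (adjusted p = 0.000588, edgeR), ANLN by 0.18 ± 0.04 (0.00178) and CEP55 by 0.17 ± 0.04 (0.00300). Their GC-corrected values were 0.08 ± 0.03, 0.06 ± 0.03 and 0.06 ± 0.03.

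Of the 5 chromosome structure genes, 4 rose in both fits. SMC2, a core ATPase of condensin, had 171, 175, 172 and 174 CPM in the c-di-GMP libraries and 142, 153 and 144 CPM in vehicle replicates 1, 2 and 4, with 53.4 CPM in vehicle replicate 3. SMC4, its partner, had 244, 255, 246 and 248 CPM in the c-di-GMP libraries and 197, 222 and 212 CPM in vehicle replicates 1, 2 and 4, with 22.7 CPM in vehicle replicate 3. NCAPG, a subunit of condensin I, had 185, 197, 195 and 197 CPM in the c-di-GMP libraries and 153, 169.7 and 161 CPM in vehicle replicates 1, 2 and 4, with 104 CPM in vehicle replicate 3. In all 3 the c-di-GMP libraries were above every vehicle library, and vehicle replicate 3 was the lowest of the 8. SMC2 rose by 0.24 ± 0.04 (adjusted p = 0.000134, edgeR), SMC4 by 0.24 ± 0.04 (0.000242) and NCAPG by 0.26 ± 0.04 (0.000102), with GC-corrected values of 0.11 ± 0.03, 0.10 ± 0.03 and 0.14 ± 0.03. TRIM59 and IFT80 overlap 25.6% of the exon bases of SMC4, and LCORL 33.1% of those of NCAPG, on the opposite strand. The next largest such shares among the 42 genes are 15.9% for FOXM1, 12.5% for PLK1, 9.08% for CCNA2 and 8.78% for CDC25C. Whether the library kit kept the strand is not given in the sources used here, so the values of all these genes share this uncertainty. TOP2A, the topoisomerase that untangles sister chromatids, had 729, 749, 708 and 736 CPM in the c-di-GMP libraries and 604, 632 and 635 CPM in vehicle replicates 1, 2 and 4, with 258 CPM in vehicle replicate 3. It rose by 0.23 ± 0.04 (adjusted p = 0.000181, edgeR) and by 0.10 ± 0.03 after GC correction, with no overlap. MKI67, the proliferation marker Ki-67 (chr10:128096659-128126385), had 870.0, 1006, 826 and 864 CPM in the c-di-GMP libraries and 856, 853 and 801 CPM in vehicle replicates 1, 2 and 4, with 186 CPM in vehicle replicate 3. Its groups overlapped, with c-di-GMP replicate 2 highest, and the change of 0.09 ± 0.05 was not called (approximate 95% interval -0.01 to 0.19). The GC-corrected value was 0.07 ± 0.04, not called, and with GC and length correction it was 0.13 ± 0.04, which was called.

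**Figure D3:**
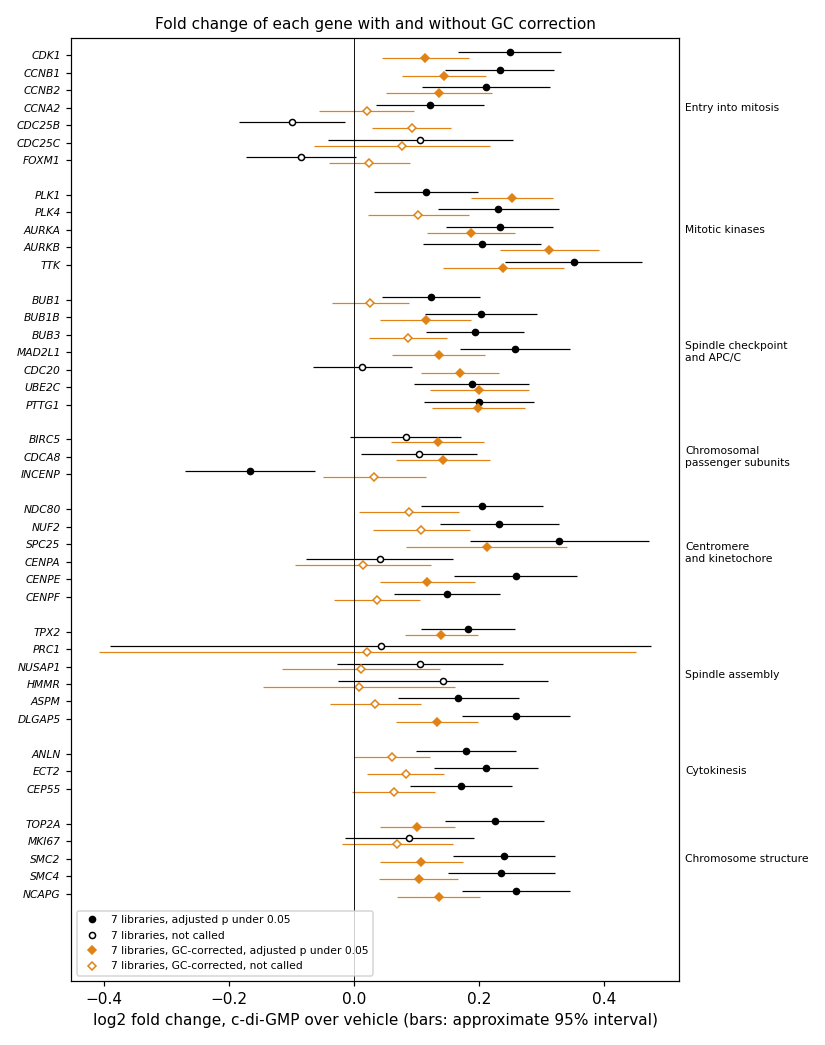
Log2 fold change of each gene, c-di-GMP over vehicle, in the fit of 7 libraries (circles) and in its GC-corrected form (diamonds), with approximate 95% intervals and filled symbols where the adjusted p was under 0.05. Uncorrected values run between -0.17 (INCENP) and 0.35 (TTK), and corrected values between 0.01 (HMMR) and 0.31 (AURKB), all above 0.

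Per length, the highest of the 42 genes in the deposited FPKM values, averaged over the c-di-GMP libraries, were UBE2C at 126 ± 6.72, TPX2 at 118 ± 0.480, CDC20 at 114 ± 2.44, TOP2A at 113 ± 2.73 and CCNB1 at 102 ± 1.70 FPKM (SD, n = 4). In vehicle replicates 1, 2 and 4 the same genes averaged 109 ± 4.77, 102 ± 2.08, 111 ± 3.08, 95.7 ± 2.61 and 85.5 ± 5.72 FPKM (SD, n = 3). Vehicle replicate 3 held 573, 91.2, 61.2, 38.7 and 169 FPKM of them. PTTG1 was highest there at 907 FPKM, so the order differed in that library. With c-di-GMP the means of CDC20 and TOP2A were closer together than their SDs, so that their order cannot be given. At the low end were CDC25C at 5.59 ± 0.380, HMMR at 3.68 ± 0.179 and PRC1 at 0.395 ± 0.112 FPKM. Within the NDC80 complex, the c-di-GMP means were 24.4 ± 1.14 FPKM for NDC80, 23.7 ± 0.499 for NUF2, 14.3 ± 0.974 for SPC25 and 15.2 ± 0.880 for SPC24.

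The 42 genes are AT-rich: the median GC content of their longest transcripts was 42.3%, against 48.3% over all genes. Among genes under 40% GC, 12 of 13 of them rose, where 30.8% of all such genes did. Between 40% and 45% it was 12 of 13 against 22.6%, and between 45% and 50% it was 3 of 7 against 12.8%. At 50% GC and above 3 of 9 rose and 1 fell, where 3.15% of all such genes rose and 33.8% fell. Across the 42 genes, Spearman's rho between log2 fold change and GC content was -0.69 without correction and 0.17 with it, and it was -0.59 across all genes without correction; all these values come from the same 7 libraries, and genes are not independent. In the GC-corrected fit the rises in these 4 classes, from low to high GC, were 8 of 13, 5 of 13, 3 of 7 and 6 of 9, where 4.12%, 6.30%, 8.58% and 11.3% of all genes rose. How much of the uncorrected rise goes with base composition was not tested beyond this correction.

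**Figure D4:**
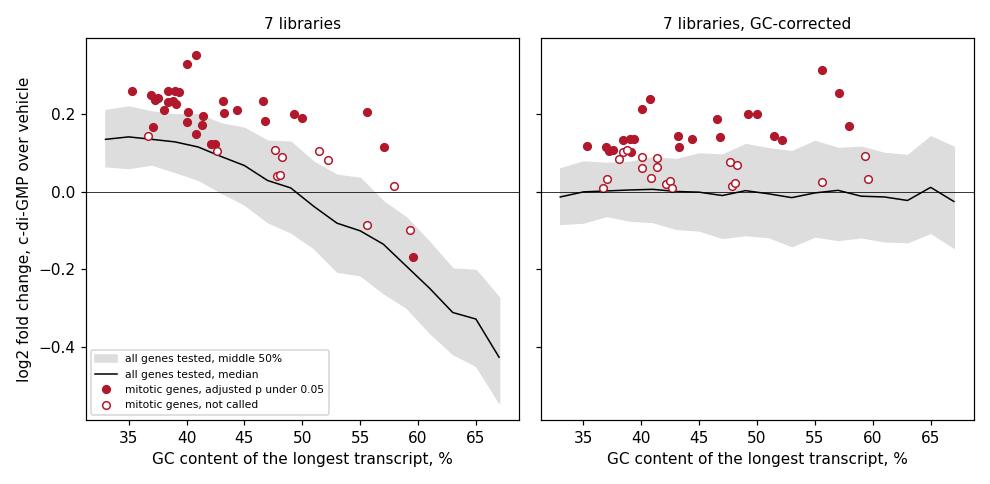
Log2 fold change, c-di-GMP over vehicle in 7 libraries, against the GC content of the longest transcript, without (left) and with GC correction (right), for the 42 mitotic genes (points, filled where the adjusted p was under 0.05) over the median and middle 50% of all genes tested in classes of GC content (line and grey band). On the left the points follow the falling line and most lie above it, and on the right all 42 lie above 0.

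Vehicle replicate 3 differed from the other libraries in both directions. It was above all 7 other libraries for 17 of the 42 genes, below all of them for 22, and within their range for CDC25B, PLK4 and TTK. The share of all genes outside that range was not counted, so these counts cannot be read as particular to the 42. The level of vehicle replicate 3 over the mean of vehicle replicates 1, 2 and 4 went with gene length. The median log2 ratio was 1.01 for 12 genes under 3000 bases, -0.00 for 17 between 3000 and 5000, and -1.33 for 13 of 5000 bases and more. Over all genes in the same classes the medians were 0.59, 0.11 and -0.47. Across the 42 genes Spearman's rho was -0.53 with length and 0.07 with GC content. The short genes PTTG1 and UBE2C stood 17.3 and 5.37 times as high as in the other vehicle libraries, while FOXM1, SMC4 and INCENP stood at 0.0645, 0.108 and 0.145 times. All 3 cytokinesis genes and all 5 chromosome structure genes were below every other library. All of these but CEP55 (3271 bases) and NCAPG (4921 bases) have 5000 bases or more, so role and length cannot be told apart here. Of the 30 genes that rose without vehicle replicate 3, 12 had a fold change of the opposite sign with all 8 libraries, none of it called.

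**Figure D5:**
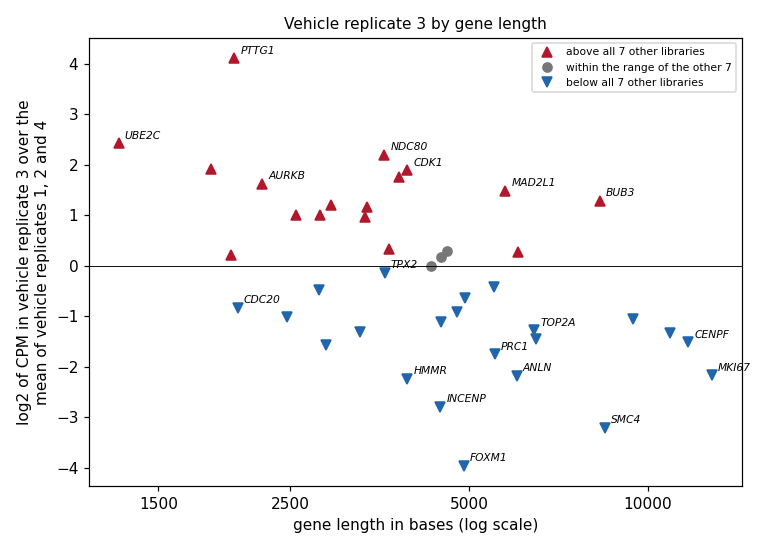
Log2 of the CPM in vehicle replicate 3 over the mean of vehicle replicates 1, 2 and 4 for each of the 42 genes, against gene length in bases (log axis), with symbols for genes where replicate 3 lay above, within or below the other 7 libraries. Values run between about -4 (FOXM1) and 4 (PTTG1), and genes of 5000 bases and more lie mostly below 0.

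Other genes of these pathways are given from the fit of 7 libraries, as counts per list and the called genes with the smallest p, with uncorrected values unless stated. The counts stand beside the shares over all genes, 13.5% higher and 16.2% lower without GC correction, and 8.58% and 6.62% with it. Of 33 other kinetochore and centromere genes, 16 rose and 0 fell, with CENPU at 0.29 ± 0.05, SKA3 at 0.31 ± 0.06 and SKA2 at 0.23 ± 0.04 on the log2 scale. After GC correction 6 rose, CENPU and SKA3 among them, while SKA2 (0.10 ± 0.04) was not called. Of 12 mitotic kinesins 7 rose and 1 fell, with KIF18A at 0.33 ± 0.05, KIF23 at 0.26 ± 0.04 and KIF11 at 0.23 ± 0.05. After correction 3 rose, KIF18A and KIF23 among them, while KIF11 (0.10 ± 0.04) was not called. Of 25 other genes of the G2/M programme 13 rose and 1 fell, with MELK at 0.24 ± 0.05, CKAP2 at 0.23 ± 0.04 and PBK at 0.25 ± 0.05. After correction 9 rose, MELK and PBK among them, while CKAP2 (0.10 ± 0.03) was not called. Of 18 cohesin and other condensin genes 6 rose and 1 fell, with SMC3 at 0.18 ± 0.04, RAD21 at 0.16 ± 0.04 and STAG1 at 0.17 ± 0.05. After correction 1 rose, and these 3 were not called, at 0.05 each.

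Of 21 APC/C subunits and regulators 10 rose and 5 fell, and 4 rose and 1 fell after GC correction. FZR1 (CDH1), the APC/C activator of late mitosis and G1, fell by 0.37 ± 0.05 but stood at -0.06 ± 0.04 after correction. UBE2S, which extends ubiquitin chains on APC/C substrates, fell by 0.26 ± 0.05, and by 0.15 ± 0.04 after correction. MAD1L1, the kinetochore anchor of MAD2, fell by 0.27 ± 0.06 and stood at 0.01 ± 0.04 after correction. Of 15 inhibitors and phosphatases of mitotic entry and exit 6 rose and 3 fell, and 3 rose and 1 fell after correction. The phosphatase subunits PPP1CC and PPP2CA rose by 0.29 ± 0.04 and 0.24 ± 0.04 (0.20 ± 0.04 and 0.13 ± 0.03 after correction, both called), and PKMYT1, which phosphorylates and inhibits CDK1, fell by 0.30 ± 0.06 but stood at 0.08 ± 0.05 after correction. Of 36 G1/S and DNA replication genes 12 rose and 4 fell, and 13 rose and 1 fell after correction, with RRM2, a subunit of ribonucleotide reductase, at 0.38 ± 0.05 and 0.33 ± 0.04 after correction, its partner RRM1 at 0.22 ± 0.04 and 0.14 ± 0.03, and the helicase subunit MCM2 at -0.25 ± 0.05 and, no longer called, -0.09 ± 0.04. Of 10 genes of the DREAM complex, which holds MuvB at CHR promoters in resting cells, 2 rose and 0 fell, and 0 rose after correction, the 2 being RBBP4 (0.15 ± 0.04) and LIN54 (0.23 ± 0.07), the subunit that contacts the CHR. With all 8 libraries 0 genes of these lists were called by edgeR, and the DESeq2 calls are not given for these lists.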

How the data were processed

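RNA-seq data of MDA-MB-231 cells (4 c-di-GMP and 4 vehicle libraries) were analysed, from counts per gene and FPKM per gene deposited by the authors, both for 16383 listed genes. The submitters' processing notes name, with no role or order, HISAT2 2.0.5 and featureCounts 1.5.0-p3, as well as DESeq2 1.20.0, CASAVA 1.8 and fastp, and a mouse genome build. The deposited counts carry human genes, and all 16383 have the same position in GENCODE release 29. The library kit is a NEBNext Ultra kit, per the labels' protocols, and RNA was total RNA from TRIzol.

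Counts were tested with edgeR 4.0.16 (R 4.3.3): filterByExpr (minimum count 10, minimum total 15), TMM scaling, the quasi-likelihood F test with treatment alone, and Benjamini-Hochberg adjustment over all genes with a threshold of 0.05. Levels are CPM on the TMM scale of all 8 libraries, and approximate 95% intervals come from the SE. In the GC-corrected fit, a lowess trend (span 0.3) of each library on transcript GC content (longest transcript) was an offset. GC-corrected values rest on 7 libraries. FPKM, normalised by the authors for length and depth, served for levels and for limma 3.58.1 on log2(FPKM + 0.1). The scripts were tested on simulated data. Other alternatives were DESeq2 1.42.0, its size factors, no filter, a replicate block, each library left out and, chosen after seeing the data, GC with length correction.

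The 42 genes and all lists were chosen with earlier results of these data known. By the naming rule, values per library were given for CDK1, CCNB1, FOXM1, MKI67 and up to 4 genes a role group with the smallest p in the fit of 7 libraries, and up to 3 called genes of each other list were named. Values of PLK1, CDC20, UBE2C and CENPA per library were added after their values were seen.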

Additional observations from a re-analysis of the deposited data

Results flagged for a closer look

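Within the 4 libraries of each group, the highest or lowest value was compared with the group's range for each of the 42 genes, which gives 84 groups of 4 values. In 30 of them 1 library lay far from the other 3. Chance flags about 1 in 20 independent groups, but these groups share the same 8 libraries and are not independent. That rate is therefore no fitting baseline, and the share over all genes was not counted. Vehicle replicate 3, already known to stand apart, was the flagged library in 28, being the highest value in 16 and the lowest in 12. It was the highest for CDK1 (434 CPM), CCNB1 (447 CPM), CCNB2 (126 CPM), CDC25C (33.8 CPM), AURKA (442 CPM), AURKB (242 CPM), TTK (59.1 CPM), BUB1 (206 CPM), BUB3 (726 CPM), MAD2L1 (281 CPM), UBE2C (763 CPM), PTTG1 (1892 CPM), BIRC5 (458 CPM), NDC80 (349 CPM), NUF2 (153 CPM) and SPC25 (79.8 CPM). It was the lowest for FOXM1 (8.76 CPM), PLK1 (65.2 CPM), BUB1B (34.4 CPM), CDC20 (129 CPM), CENPF (166 CPM), NUSAP1 (6.88 CPM), ANLN (99.7 CPM), CEP55 (60.1 CPM), TOP2A (258 CPM), MKI67 (186 CPM), SMC2 (53.4 CPM) and SMC4 (22.7 CPM). The other 2 were single c-di-GMP libraries, each the lowest of its group: ECT2 in replicate 2 (248 CPM) and NCAPG in replicate 1 (185 CPM). Both of these stayed above every vehicle library.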

How the results depend on the processing

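With all 8 libraries the count of called genes was 122 with DESeq2, of which 1 was a mitotic gene (UBE2C, PTTG1 and NDC80 have no adjusted p there), against 0 by edgeR. Leaving out each library in turn gave 0 to 4633 called genes and 0 to 31 called mitotic genes, the upper ends without vehicle replicate 3; the rest gave 0. Of the 32 genes named under the rule, 12 had the opposite sign and were called without vehicle replicate 3. The lowest and highest log2 fold changes over the 8 runs were -0.68 and 0.25 for CDK1, -0.21 and 0.23 for CCNB1, -0.23 and 0.21 for CCNB2, -0.29 and 0.23 for AURKA, -0.57 and 0.20 for AURKB, -0.37 and 0.19 for BUB3, -0.42 and 0.26 for MAD2L1, -2.48 and 0.20 for PTTG1, -0.93 and 0.20 for NDC80, -0.29 and 0.23 for NUF2, -0.64 and 0.33 for SPC25, and -0.17 and 0.38 for INCENP. The cause was not tested.

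With 7 libraries, GC correction left 2378 called genes of 4633 and a median of 0.11 over the 42, and GC with length correction left 2097 and 0.10, with 22 rises in each, of which 18 were the same genes. Adding length lost CDK1, CCNB2, CDCA8 and SPC25 and gained BUB3, CENPF, ECT2 and MKI67. Under these, INCENP turned to 0.0327 with GC and 0.0271 with GC and length, and CCNA2 to -0.0272 with GC and length. Genes not called also changed sign. CENPA, NUSAP1 and HMMR were below 0 with GC and length, and FOXM1 and CDC25B were above 0 under both corrections. All 42 fold changes were above 0 with GC, and 38 with GC and length. Leaving out each of the 7 libraries gave 3440 to 4826 called genes, 27 to 31 called mitotic genes and a median of 0.16 to 0.21. Of the 30 rises, 26 stayed past the threshold in all 7 runs, and ASPM, BUB1, CCNA2 and PLK1 did not. DESeq2, its size factors and no filter kept the direction and the side of the threshold of all 32 genes named under the rule, and limma on FPKM lost ASPM and INCENP.

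Same-numbered c-di-GMP and vehicle libraries did not deviate together (correlations of 0.02, -0.01 and 0.01 with 7 libraries), so the numbers were not taken as pairs. A replicate block gave 4093 called genes and 30 called mitotic genes with 7 libraries and 0 with 8. At these depths even the lowest of the 42 genes, PRC1, was counted in every library, but its changes have intervals wide enough to hold either direction.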
